A study of Mus musculus with 28 samples.

Results

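The genes described here encode the proteins of the mitochondrial ribosome, measured in MC38, a mouse colon adenocarcinoma line from the C57BL/6 strain. They were chosen by name alone: every gene in both deposited tables whose name starts with Mrpl or Mrps followed by a digit, without names containing -ps, which mark pseudogenes and left out 4. This gave 77 members among 12721 genes in the in vitro table and 12948 in the co-culture table, 48 named Mrpl and 29 named Mrps. The rule uses no measured value, but the group was taken up with earlier results of these data known. Of the members, 26 belong to the small subunit and 50 to the large subunit, which includes Mrps18a and Mrps30 despite their names. The remaining member, Mrps36, is now known as a subunit of the alpha-ketoglutarate dehydrogenase complex and is kept because the rule keeps it.

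The mitochondrial ribosome translates the few messages of the mitochondrial genome, which encode core subunits of the respiratory chain and of ATP synthase. Its proteins are all encoded in the nucleus, made in the cytosol and imported, and they assemble on ribosomal RNA made inside the organelle. Many have a counterpart in bacterial ribosomes, and others are found only in mitochondria. Subunits of such a complex are needed in fixed proportion, so their messages are often described as a housekeeping set.

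The series asked how MC38 cells respond to the cytokines TNF and IFNG and to tumour-reactive T cells. The in vitro table holds 10 libraries, 2 each of untreated MC38, MC38 with TNF, MC38 with IFNG, MC38 with both cytokines (TNF+IFNG), and MC38 given co-culture supernatant. The other table holds 9 co-culture libraries, 3 each of MC38 alone, MC38 with an isotype antibody, and MC38 with an antibody against PD1, the inhibitory receptor of T cells. Per the column names that the sample descriptions give, OT1 T cells were present in both antibody groups. These are CD8+ cells with a transgenic receptor for an ovalbumin peptide. The cytokines and T cells acted for 6 hours, and no time is recorded for the supernatant. All groups are 1 cell line, and no allele or genotype difference is given between them. The labels do not say that replicates were separate cultures, so p-values measure the spread between these libraries, which may be technical.

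Some libraries stand apart or carry labels in conflict. The third anti-PD1 library is titled and annotated as untreated, and was placed by its description, which names the anti-PD1 column. On the log2 scale its Ifng (6.54) and Cxcl10 (11.25) were at co-culture levels, against at most 1.85 and 5.66 in MC38 alone. These values do not tell the antibodies apart. The second isotype library has a column name with OT2 in place of OT1. Total counts were not used here, and the steps between low values imply a depth of 3360000 to 11200000 assigned reads in the in vitro libraries and of 3730000 to 11000000 in the others. The lowest of each were the second TNF+IFNG library and the third library of MC38 alone. Among 16 T cell markers, 12 are in the co-culture table, and Cd3e, Cd3g, Cd28 and Trac are not. Their summed level was 3.01 and 3.93 CPM (counts scaled to a fixed total per library) in the first and second libraries of MC38 alone, 42.9 in the third, 135 to 165 in the isotype group and 141 to 159 in the anti-PD1 group. In vitro only Lck is in the table, at 5.07 CPM in the second TNF+IFNG library and at 0.109 to 1.25 CPM in the others. T cell markers thus moved with the co-culture groups, and their part in the results below was not tested. In these bulk samples fewer cells of a type and less RNA per cell cannot be told apart. The epithelial markers checked against the label of a carcinoma line were low. In vitro only Cdh1 of 6 is in the table, at 7.85 CPM in the second TNF+IFNG library and 5.45 or less in the others. In co-culture 5 of 6 are, summing to 1.61 to 11.9 CPM in 8 libraries. The first anti-PD1 library stood apart at 33.3 CPM, against 2.94 and 2.81 in the other anti-PD1 libraries, and the anti-PD1 count without it is given below. In vitro Vim, S100a4 and Col3a1, mesenchymal genes, summed to 4130 to 5543 CPM.

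Promoters are shown for the members that the results turn on: Mrpl46 with its neighbour Mrps11, Mrpl53, Mrpl42 and Mrpl44. Each is 300 bases of RefSeq sequence, from 250 before to 50 after the start of transcription (GRCm38.p6), written 5′ to 3′ along the gene's own strand. Capitals mark matches, on either strand, to 3 motifs of nuclear factors known for genes of mitochondrial proteins: TGCGCA (a half-site of NRF1), CCGGAAG (the ETS factor GABP) and AANATGGCG (YY1). No matches of different motifs overlap in these 5 windows. Mrpl46 (chr7:78783040-78783339, minus strand) and Mrps11 (chr7:78782881-78783180, plus strand) start 42 bases apart and run in opposite directions, so that 141 bases of the windows are the same DNA read on opposite strands. Mrpl53 is at chr6:83108858-83109157 (plus), Mrpl42 at chr10:95501900-95502199 (minus) and Mrpl44 at chr1:79775768-79776067 (plus).
Mrpl46: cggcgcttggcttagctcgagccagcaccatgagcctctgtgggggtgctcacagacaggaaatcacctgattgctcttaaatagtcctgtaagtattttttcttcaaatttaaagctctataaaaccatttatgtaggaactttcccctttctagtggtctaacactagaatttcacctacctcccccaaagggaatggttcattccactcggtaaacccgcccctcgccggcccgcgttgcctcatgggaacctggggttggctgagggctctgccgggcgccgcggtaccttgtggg
Mrps11: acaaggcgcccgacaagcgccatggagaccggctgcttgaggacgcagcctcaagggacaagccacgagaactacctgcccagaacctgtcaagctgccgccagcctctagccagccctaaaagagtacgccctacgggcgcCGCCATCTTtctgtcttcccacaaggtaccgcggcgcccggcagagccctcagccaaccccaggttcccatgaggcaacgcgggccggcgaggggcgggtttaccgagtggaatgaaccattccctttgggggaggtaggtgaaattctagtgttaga
Mrpl53: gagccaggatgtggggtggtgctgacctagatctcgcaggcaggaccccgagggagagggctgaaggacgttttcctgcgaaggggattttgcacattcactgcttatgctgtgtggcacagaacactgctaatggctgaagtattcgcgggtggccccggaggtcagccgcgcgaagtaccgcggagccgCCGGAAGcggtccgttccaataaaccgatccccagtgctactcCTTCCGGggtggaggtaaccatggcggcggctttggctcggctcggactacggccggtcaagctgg
Mrpl42: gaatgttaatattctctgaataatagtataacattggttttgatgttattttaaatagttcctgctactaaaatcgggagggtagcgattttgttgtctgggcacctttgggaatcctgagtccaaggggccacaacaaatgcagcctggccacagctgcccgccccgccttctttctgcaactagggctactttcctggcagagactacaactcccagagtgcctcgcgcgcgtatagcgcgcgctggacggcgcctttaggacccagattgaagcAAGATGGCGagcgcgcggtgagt
Mrpl44: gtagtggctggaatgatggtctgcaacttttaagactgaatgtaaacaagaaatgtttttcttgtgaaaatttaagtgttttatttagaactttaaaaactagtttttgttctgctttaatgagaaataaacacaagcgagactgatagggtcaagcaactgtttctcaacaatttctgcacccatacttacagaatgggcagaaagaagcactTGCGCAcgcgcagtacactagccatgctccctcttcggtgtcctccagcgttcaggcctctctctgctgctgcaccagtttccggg
Mrpl46 held none of the motifs, Mrps11 and Mrpl42 each held 1 match to the YY1 motif, Mrpl44 1 to the NRF1 motif and Mrpl53 2 to the ETS motif.

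Of the 77 members, 68 had an entry in the promoter table. The ETS motif was in 35.3% of their promoters (24 of 68), against 20.2% of the 8450 promoters of tested genes and 9.12% of all 27025. The NRF1 half-site was in 30.9% (21), against 15.7% and 8.06%. The half-site was taken up after a longer form of the NRF1 motif had been searched, which was in 19.1% (13), against 11.6% and 4.78%. The YY1 motif was in 16.2% (11), against 6.19% and 2.51%. At least 1 of the 3 was in 42 of the 68, and 26 held none. Of the other motifs searched, the CCAAT box (CCAAT) was in 38.2% of member promoters against 39.7% of those of tested genes, the TATA box (TATAAA) in 5.88% against 6.45% and the E-box (CACGTG) in 7.35% against 10.6%. The core of the interferon-stimulated response element was in 4.41% against 3.16%, and the NF-kB core in 1.47% against 1.51%. Median GC content was 58.5% in the members (42.3% to 78%) and 61.7% in tested genes. These matches are letters in a fixed window and say nothing of binding.

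Many members share a start region with another gene. By the GENCODE M21 annotation (GRCm38), 33 of 77 (42.9%) have a protein-coding gene on the opposite strand whose start lies within 1000 bases, head to head, against 17.6% of the protein-coding genes tested in both tables and 10.9% of all. The pair of Mrpl46 and Mrps11 is the case in which both neighbours are members. The members lie on 17 chromosomes, with at most 11 on one, chromosome 11. At the 3′ end, where these libraries were read, 18 members have another annotated gene within 500 bases or overlapping, 5 of them on the same strand. No source used here says if strand was used in counting, so values of those members may hold reads of the neighbour.

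Levels were deposited as log2 CPM, and because the libraries read 1 tag near the 3′ end of each message, a level does not grow with message length. The tables were normalized separately, so levels are not compared across them. The members were abundant: 70 of 77 lay above the median gene in vitro and 68 in co-culture, and their median level was 5.58 against 3.89 for all genes in vitro and 5.06 against 3.85 in co-culture. Their order by level was much alike in the tables (Spearman rho 0.92 over the 77 members, a description of libraries from the same cell line).

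Mrps6, a small subunit protein with a bacterial counterpart, had the highest mean level in both tables, 10.18 in vitro and 9.64 in co-culture. Its gene overlaps Gm49711 on the same strand at its 3′ end, and Slc5a3 on that strand as well, so this level is uncertain. Mrpl12, the stalk protein that helps recruit translation factors, was next at 9.57 and 8.34, and its 10 in vitro libraries stayed between 9.43 and 9.77. The lowest were Mrps28 in vitro, with a mean of 0.89, and Mrps27 in co-culture, with 1.43; both are small subunit proteins. All 77 passed the filter on low values in both tables.

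**Figure D1:**
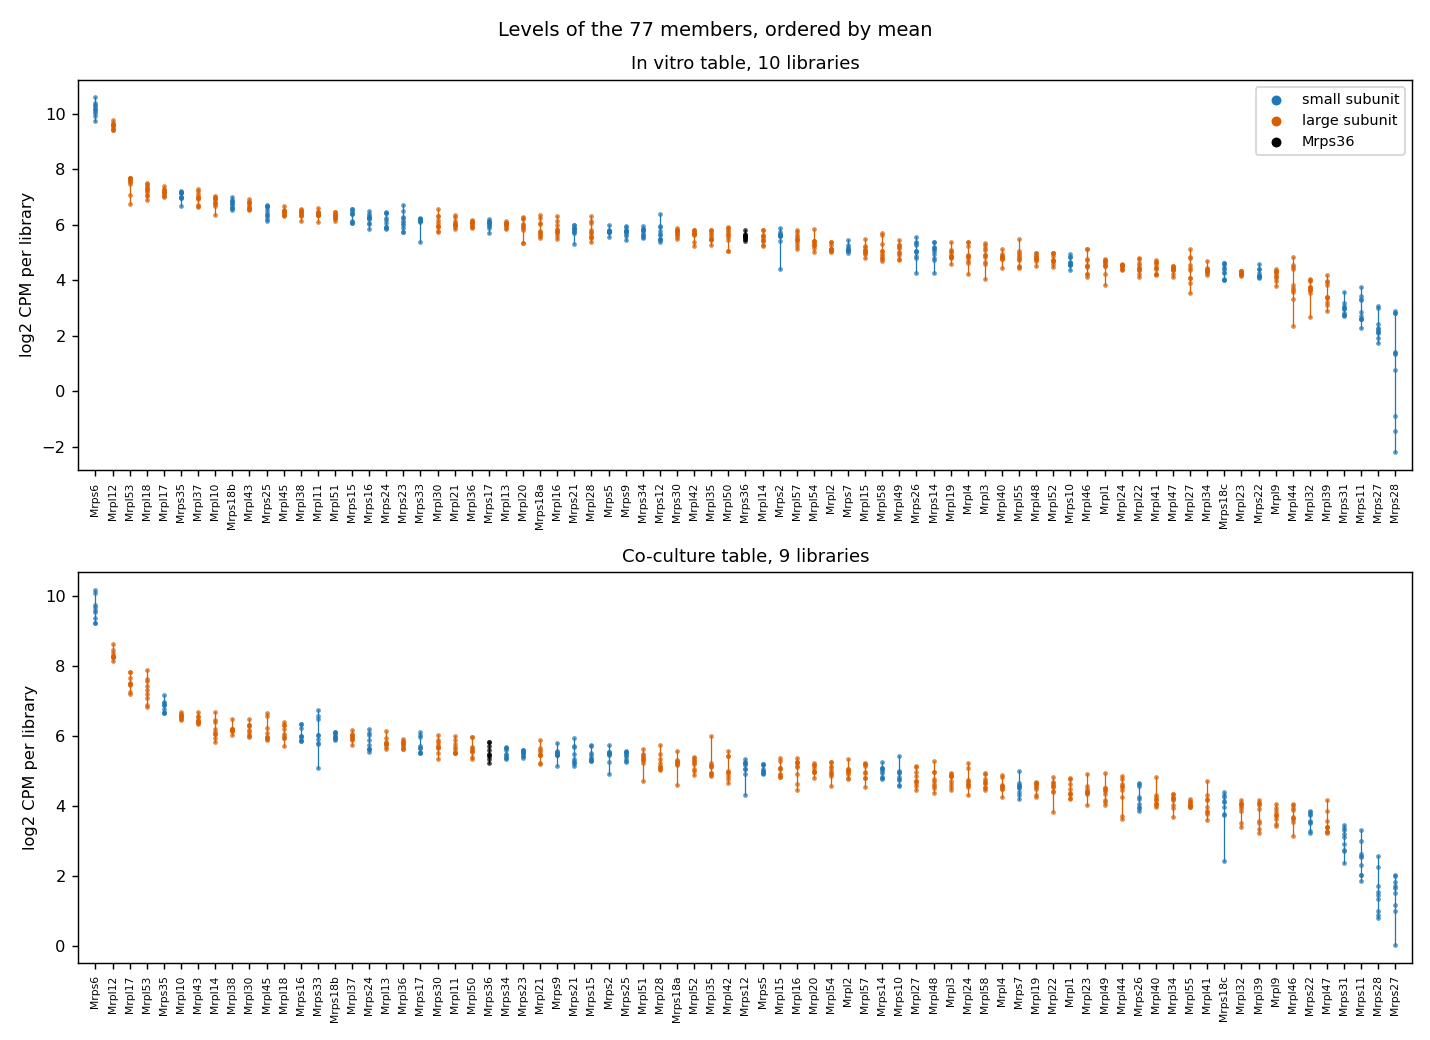
Level of each of the 77 members in log2 CPM (vertical axis), ordered by mean, with 1 point per library and a line from the lowest to the highest; the upper panel has the 10 in vitro libraries and the lower the 9 co-culture libraries. Mrps6 and Mrpl12 lead both orders, and Mrps28 spreads most in vitro.

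The members varied little between replicates. Their median within-group SD was 0.19 log2 units in both tables, against 0.26 and 0.28 for all genes. This follows their level: among genes at a mean of 5 to 6, the medians were 0.19 for 25 members and 0.19 for all genes in vitro, and 0.19 and 0.19 in co-culture (29 members). Mrps28 was the exception in vitro. It stood at 2.83 and 2.81 in untreated cells, 1.42 and 1.35 with TNF, −0.89 and 0.77 with IFNG, −2.19 and 1.38 with TNF+IFNG, and 2.90 and −1.44 with supernatant. The untreated and the first supernatant libraries were high and agreed, whereas the replicates of the IFNG, TNF+IFNG and supernatant groups were split. The implied reads behind these values run from 1.6 to 78, and no comparison of Mrps28 passed the test (lowest adjusted p = 0.0878).

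The replicates of 2 in vitro groups differed more than the others. Their 2 values lay more than 1 log2 unit apart for 5 members with TNF+IFNG (Mrpl32, Mrpl44, Mrps2, Mrps26, Mrps28) and for 5 with supernatant (Mrpl4, Mrpl27, Mrpl39, Mrpl44, Mrps28), against 0 in the untreated and TNF groups and 1 with IFNG. Among all genes this held for 14.6% and 12.1%, against 5.9% to 7.27% in the other groups.

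Each comparison was tested with limma over all genes of a table, with adjusted p under 0.05 as the threshold, and folds are given with limma's standard error (SE). In all, 16 members passed in at least 1 of 8 comparisons and 61 in none. The share of all genes that passed in at least 1 is not given here. TNF alone, IFNG alone, supernatant and the TNF x IFNG interaction changed no member by this test, nor did anti-PD1 against isotype. TNF+IFNG raised 4 and lowered 2 (7.79%, against 9.02% of all genes). Co-culture with OT1 T cells lowered 8 and raised 1, with either antibody. This was 11.7% of the members, against 13.9% of all genes with isotype and 16.1% with anti-PD1.

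**Figure D2:**
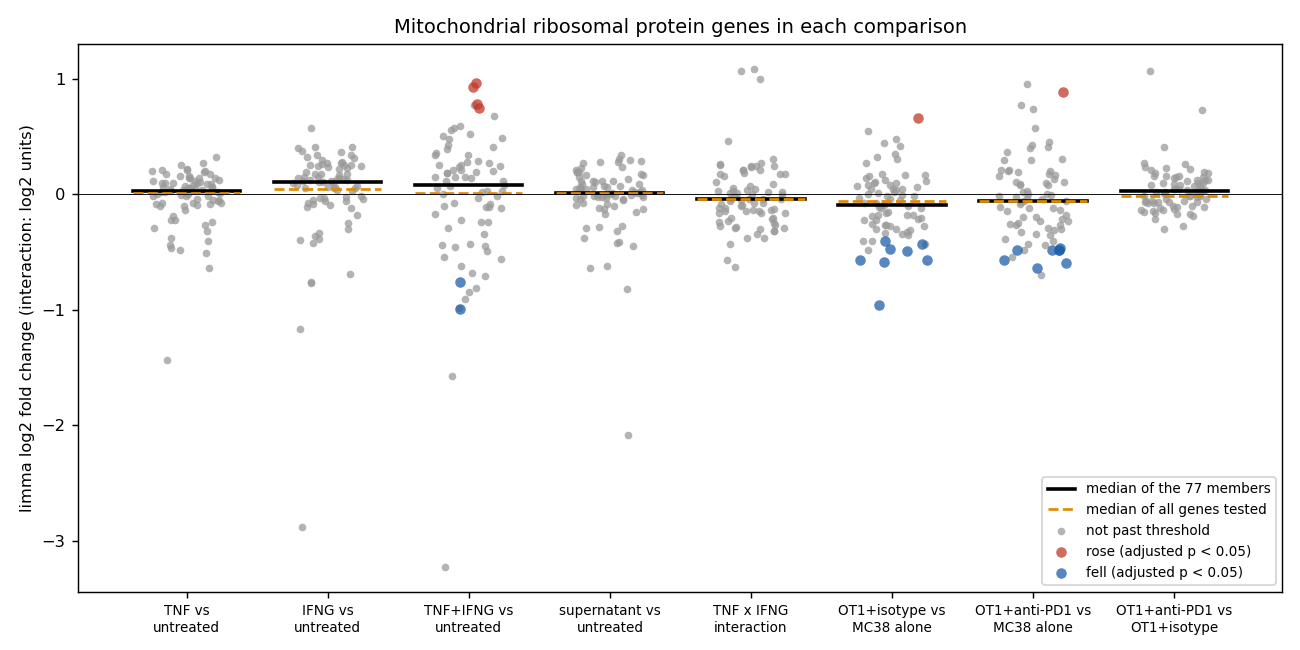
limma log2 fold change of each member (1 point per gene) in the 8 comparisons, with the median of the members (black) and of all genes tested (orange, dashed). Coloured points passed at adjusted p under 0.05. There were 6 with TNF+IFNG (7.79%, against 9.02% of all genes). Against MC38 alone there were 9 with OT1+isotype (11.7%, against 13.9%) and 9 with OT1+anti-PD1 (11.7%, against 16.1%). None passed elsewhere.

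With TNF alone no member passed among 12720 genes, of which 0.275% passed, and none reached an unadjusted p under 0.05. The share of all genes at that unadjusted cutoff is not given here. The median log2 fold was 0.03, against 0.01 for all genes. The 3 members with the smallest p were Mrps11 (−0.64 ± 0.32), Mrpl46 (0.32 ± 0.16) and Mrpl3 (−0.44 ± 0.22), with adjusted p of 0.812, 0.812 and 0.813. Mrpl46 stood at 4.11 and 4.23 in untreated cells and 4.50 and 4.48 with TNF, groups that do not overlap. Such separation was found for 31 members (40.3%) and 42.9% of all genes, and thus says little with 2 libraries a group.

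With IFNG no member passed, against 0.354% of all genes. At an unadjusted p under 0.05 there were 2 higher and 1 lower, a count given without the share of all genes at that cutoff. These were Mrpl46 (0.58 ± 0.16, adjusted p = 0.351), Mrps25 (0.40 ± 0.16, 0.449) and Mrps11 (−1.17 ± 0.32, 0.341). The median fold of the members was 0.11, against 0.04 for all genes. The IFNG libraries lay wholly above the untreated ones for 35 members (45.5%), against 30.4% of all genes, and wholly below for 14 (18.2%), against 25.7%. The median member level was 5.49 and 5.44 in the untreated libraries and 5.58 and 5.59 with IFNG. It was 5.56 and 5.57 with TNF, 5.59 and 5.55 with TNF+IFNG, and 5.43 and 5.49 with supernatant. The cytokine libraries were thus slightly above the untreated ones, while the supernatant libraries spanned them.

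TNF+IFNG changed 6 members, 4 up and 2 down, or 7.79% against 9.02% of all genes (4.77% up and 4.25% down). The members' share was therefore near the background. Their median fold was 0.08, against 0.02 for all genes. The large subunit held 5 of the 6 (3 of 50 up, 2 down) and the small subunit 1 (of 26, up).

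Mrpl46, a large subunit protein found only in mitochondria, stood at 4.11 and 4.23 in untreated cells, 4.50 and 4.48 with TNF, 4.77 and 4.73 with IFNG, 5.14 and 5.12 with both, and 4.23 and 4.57 with supernatant. The levels step up from untreated through TNF and IFNG to both, with no overlap between these 4 groups. With both cytokines it rose 1.95-fold (log2 fold 0.96 ± 0.16, adjusted p = 0.017). Mrps11, a small subunit protein with a bacterial counterpart and the head-to-head neighbour whose promoter is printed above, did not share this order. It stood at 3.44 and 3.75 untreated, 3.30 and 2.61 with TNF, 2.27 and 2.59 with IFNG, 2.72 and 2.86 with both, and 3.34 and 2.61 with supernatant. The untreated libraries were the highest for Mrps11 and, with the first supernatant library, the lowest for Mrpl46. The Mrps11 fold with both cytokines did not pass.

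**Figure D3:**
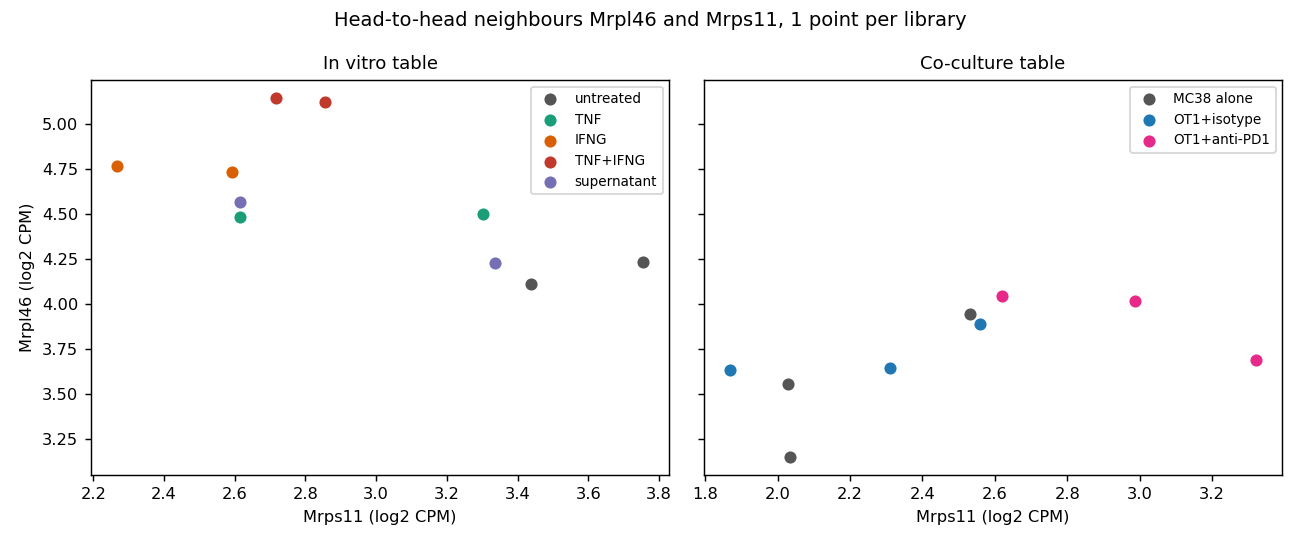
Level of Mrpl46 (vertical, log2 CPM) against its head-to-head neighbour Mrps11 (horizontal, log2 CPM), 1 point per library, in vitro on the left and co-culture on the right. The 2 TNF+IFNG libraries have the highest Mrpl46 values (5.14 and 5.12), and the untreated libraries have the highest Mrps11 values (3.44 and 3.75).

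Mrpl58, a peptidyl-tRNA hydrolase built into the large subunit that can release stalled chains, stood at 4.70 and 4.79 untreated and at 5.63 and 5.71 with both cytokines. It was at 4.88 and 5.05 with TNF, 4.93 and 5.05 with IFNG, and 4.78 and 5.32 with supernatant. The TNF+IFNG libraries were the highest of the 10. It rose 1.90-fold with both cytokines (0.93 ± 0.19, adjusted p = 0.0286).

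Mrps23, a small subunit protein found only in mitochondria, went from 5.76 and 5.90 to 6.49 and 6.73 (0.78 ± 0.19, adjusted p = 0.0411). Mrpl28, a large subunit protein with a bacterial counterpart, went from 5.37 and 5.57 to 6.13 and 6.31 (0.75 ± 0.19, adjusted p = 0.0451). In both, the groups did not overlap, and the second supernatant library (6.29 and 6.08) was far above the first (5.75 and 5.54).

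Mrpl3, the large subunit counterpart of bacterial L3 that lies near the peptidyl transferase centre, fell by 0.99 ± 0.22 on the log2 scale with both cytokines (adjusted p = 0.0349). Its levels were 5.26 and 5.36 untreated, 4.85 and 4.90 with TNF, 5.16 and 4.67 with IFNG, and 4.58 and 4.05 with both. Its 3′ end overlaps Gm47106 on the opposite strand, so the value is uncertain. Mrpl53, a large subunit protein found only in mitochondria, stood at 7.69 and 7.68 untreated and at 7.09 and 6.76 with both. The single cytokines left it at 7.66 and 7.56 (TNF) and 7.58 and 7.67 (IFNG), and supernatant at 7.62 and 7.46. It fell by 0.76 ± 0.14 with both cytokines (adjusted p = 0.0238), and the TNF+IFNG libraries were the lowest of the 10. Gm42688 lies on the same strand at its 3′ end, so reads of that gene may be included.

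These 6 calls rest on few libraries. Except where a share of all genes is given, the refit counts below lack it and do not measure a response of the members. None passed when only the untreated and TNF+IFNG groups were fitted, without either untreated library, or without the shallow second TNF+IFNG library, where Mrpl46 had an adjusted p of 0.0504 and Mrpl3 0.0951. Without that library the share of all genes past the threshold was 2.41%. The count was 15 without the first supernatant library and 14 without the second, 3 without either TNF library and 1 without either IFNG library.

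The interaction contrast asked whether the change with both cytokines departs from the sum of the single ones. No member passed, against 0.0157% of all genes, and the median was −0.04 for both members and all genes. The smallest p values belonged to Mrpl53 (−0.63 ± 0.20), Mrps27 (1.07 ± 0.37) and Mrps11 (1.00 ± 0.45), all with adjusted p = 0.962. At an unadjusted p under 0.05, Mrpl53 was lower and Mrps27 higher, again without the share of all genes at that cutoff.

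Supernatant changed no member, against 0.448% of all genes, with a median fold of 0.01 for both. At an unadjusted p under 0.05 there was Mrpl27 alone (−0.81 ± 0.35, adjusted p = 0.864), followed by Mrpl39 (−0.64 ± 0.32, 0.864) and Mrps11 (−0.62 ± 0.32, 0.864). For all genes the share at that unadjusted cutoff is not given here. The 2 supernatant libraries were far apart for several members. Mrpl44 was at 4.83 and 3.34, beside 4.56 and 4.50 in untreated cells, 3.71 and 3.81 with IFNG, and 2.34 and 3.58 with both cytokines. Mrpl27 was at 4.81 and 3.53, beside 4.82 and 5.14 untreated, 4.09 and 4.36 with IFNG, and 3.92 and 4.08 with both. In both genes the first supernatant library lay near the untreated level and the second below every untreated library. Without the first supernatant library Mrpl27 passed against untreated (−1.45, adjusted p = 0.0437), and the member median was 0.09.

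In co-culture, 8 members fell and 1 rose with OT1 T cells and isotype antibody against MC38 alone. This is 11.7%, against 13.9% of all 12707 genes tested. By direction, 10.4% of members fell against 6.22% of all genes, and 1.3% rose against 7.64%. The median fold was −0.09, against −0.06 for all genes. With anti-PD1 the counts were again 8 and 1 (11.7%, against 16.1% of all genes), with 10.4% lower against 7.71% and 1.3% higher against 8.42%, and both medians at −0.06. The comparisons share the 3 libraries of MC38 alone, so they are not independent: 7 of the 9 members called in each were called in both. Without the third library of MC38 alone there were 8 lower and 0 higher with isotype (all genes 17.5%), of which 7 were among the first 8: Mrpl53 and Mrpl44 were lost and Mrpl15 was gained. With anti-PD1 there were then 7 lower and 1 higher (20.2%), with 6 of the lower among the first 8: Mrpl53 and Mrps6 were lost and Mrpl28 was gained. Without the third anti-PD1 library, whose labels conflict, there were 5 lower and 1 higher with anti-PD1 (9.66%), all among the first 9, and Mrpl45, Mrps21 and Mrps6 were lost. The isotype count of 9 became 2 without the first or the third isotype library, 3 without the second anti-PD1 library, 4 without the second isotype library, and 5 without the first or the second library of MC38 alone or the first anti-PD1 library. The anti-PD1 count became 2 without the first and 3 without the second anti-PD1 library, and 4 without the first library of MC38 alone. Apart from the 17.5%, 20.2% and 9.66% above, the share of all genes in these refits is not given here.

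Of the small subunit, Mrps33, found only in mitochondria, stood at 6.57, 6.76 and 6.49 in MC38 alone, at 6.03, 5.82 and 5.09 with isotype, and at 5.78, 5.91 and 6.03 with anti-PD1. Every co-culture library was below every library of MC38 alone. It fell by 0.96 ± 0.21 with isotype (1.95-fold lower, adjusted p = 0.0137), and passed under each of the 16 alternatives run. With anti-PD1 it was below MC38 alone in all libraries and just missed the threshold (−0.70 ± 0.21, adjusted p = 0.0502).

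Mrps17 and Mrps21, small subunit proteins with bacterial counterparts, fell in both comparisons. Mrps17 stood at 5.97, 6.02 and 6.12 in MC38 alone, 5.67, 5.71 and 5.52 with isotype, and 5.54, 5.52 and 5.66 with anti-PD1 (−0.41 ± 0.11 and −0.46 ± 0.11, adjusted p = 0.0328 and 0.017). Mrps21 stood at 5.93, 5.69 and 5.70, then 5.49, 5.14 and 5.23, then 5.23, 5.29 and 5.36 (−0.49 ± 0.13 and −0.48 ± 0.13, adjusted p = 0.0307 in both). In neither gene did a co-culture library reach the lowest library of MC38 alone. Of the 16 alternatives, Mrps17 passed under 7 with isotype and 13 with anti-PD1, and Mrps21 under 9 in each.

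Mrps6, the most abundant member, stood at 10.17, 9.70 and 10.10 in MC38 alone and at 9.22, 9.39 and 9.59 with anti-PD1, where it fell by 0.59 ± 0.17 (adjusted p = 0.0415). With isotype it was at 9.76, 9.22 and 9.55, which overlaps MC38 alone, and did not pass (−0.48). Without the third library of MC38 alone its anti-PD1 fold was −0.54 (adjusted p = 0.077). Reads of Gm49711 or Slc5a3, which overlap it on the same strand, may be included.

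Of the large subunit, Mrpl45, which sits at the exit of the nascent chain and holds the ribosome to the inner membrane, was at 6.67, 6.56 and 6.24 in MC38 alone. It was at 5.89, 5.92 and 5.95 with isotype and 6.10, 5.96 and 5.98 with anti-PD1, all lower. It fell by 0.57 ± 0.12 (adjusted p = 0.0129) and by 0.48 ± 0.12 (adjusted p = 0.027), passing under 15 and 9 of the 16 alternatives.

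Mrpl42, found only in mitochondria and shown above with its YY1 motif, stood at 5.42, 5.56 and 5.42 in MC38 alone, 4.77, 5.00 and 4.95 with isotype, and 4.86, 4.66 and 4.98 with anti-PD1. The co-culture libraries were at 5.00 or less and those of MC38 alone at 5.42 or more. It fell by 0.56 ± 0.13 with isotype (adjusted p = 0.0171) and 1.55-fold, by 0.63 ± 0.13, with anti-PD1 (adjusted p = 0.00898), the latter under each of the 16 alternatives. In vitro, the TNF+IFNG libraries (5.38 and 5.23) were below the untreated ones (5.70 and 5.82), without passing.

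Mrpl14, a large subunit protein with a bacterial counterpart that faces the small subunit, stood at 6.69, 6.46 and 6.40 in MC38 alone, 5.95, 6.12 and 6.07 with isotype and 5.84, 6.06 and 6.20 with anti-PD1, again without overlap. It fell by 0.47 ± 0.13 (adjusted p = 0.035) and by 0.48 ± 0.13 (adjusted p = 0.0283), passing under 7 and 8 of the 16 alternatives. Mrpl18, another with a bacterial counterpart, fell with anti-PD1, from 6.40, 6.31 and 6.33 to 5.73, 5.95 and 5.94 (−0.48 ± 0.11, adjusted p = 0.0159). With isotype Mrpl18 was also below MC38 alone in all libraries (6.20, 6.00 and 6.05) and did not pass (−0.26 ± 0.11, adjusted p = 0.148).

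Mrpl53 was the member that fell in 3 comparisons. It stood at 7.64, 7.57 and 7.89 in MC38 alone, 7.31, 6.83 and 7.20 with isotype, and 6.89, 7.08 and 7.43 with anti-PD1. The groups did not overlap, but the gap between the lowest library of MC38 alone and the highest co-culture library was small. The folds were −0.59 ± 0.17 (adjusted p = 0.0462) and −0.57 ± 0.17 (adjusted p = 0.0483). Without the third library of MC38 alone neither passed (−0.49, adjusted p = 0.0915, and −0.47, adjusted p = 0.0964).

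Mrps36, the dehydrogenase subunit, fell with isotype, from 5.84, 5.73 and 5.84 to 5.44, 5.23 and 5.45 (−0.43 ± 0.12, adjusted p = 0.0381). This passed under 6 of the 16 alternatives. With anti-PD1 Mrps36 was also below MC38 alone in all libraries and did not pass (−0.33 ± 0.12, adjusted p = 0.0904). Its pseudogenes Mrps36-ps1 and Mrps36-ps2 are also listed in the table, and reads could be split between near-identical copies, so this value is uncertain.

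Mrpl44, a large subunit protein with a fold like that of RNase III, was the member that rose. It stood at 4.26, 3.71 and 3.62 in MC38 alone, 4.58, 4.46 and 4.54 with isotype, and 4.64, 4.77 and 4.85 with anti-PD1. Every co-culture library was above every library of MC38 alone, and the anti-PD1 libraries were the highest. It rose 1.85-fold with anti-PD1 (0.89 ± 0.18, adjusted p = 0.00794), under each of the 16 alternatives. With isotype it rose 1.58-fold (0.66 ± 0.18, adjusted p = 0.0344), which did not pass without the third library of MC38 alone (0.54, adjusted p = 0.0559) or without the third anti-PD1 library (adjusted p = 0.0514). In vitro the same gene was low with TNF+IFNG (2.34 and 3.58, against 4.56 and 4.50 untreated), and did not pass there (−1.57 ± 0.52, adjusted p = 0.0853). Its head-to-head neighbour Wdfy1 stood at 0.07 ± 0.12 and 0.27 ± 0.12 in the isotype and anti-PD1 comparisons and did not pass (adjusted p = 0.759 and 0.162).

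**Figure D4:**
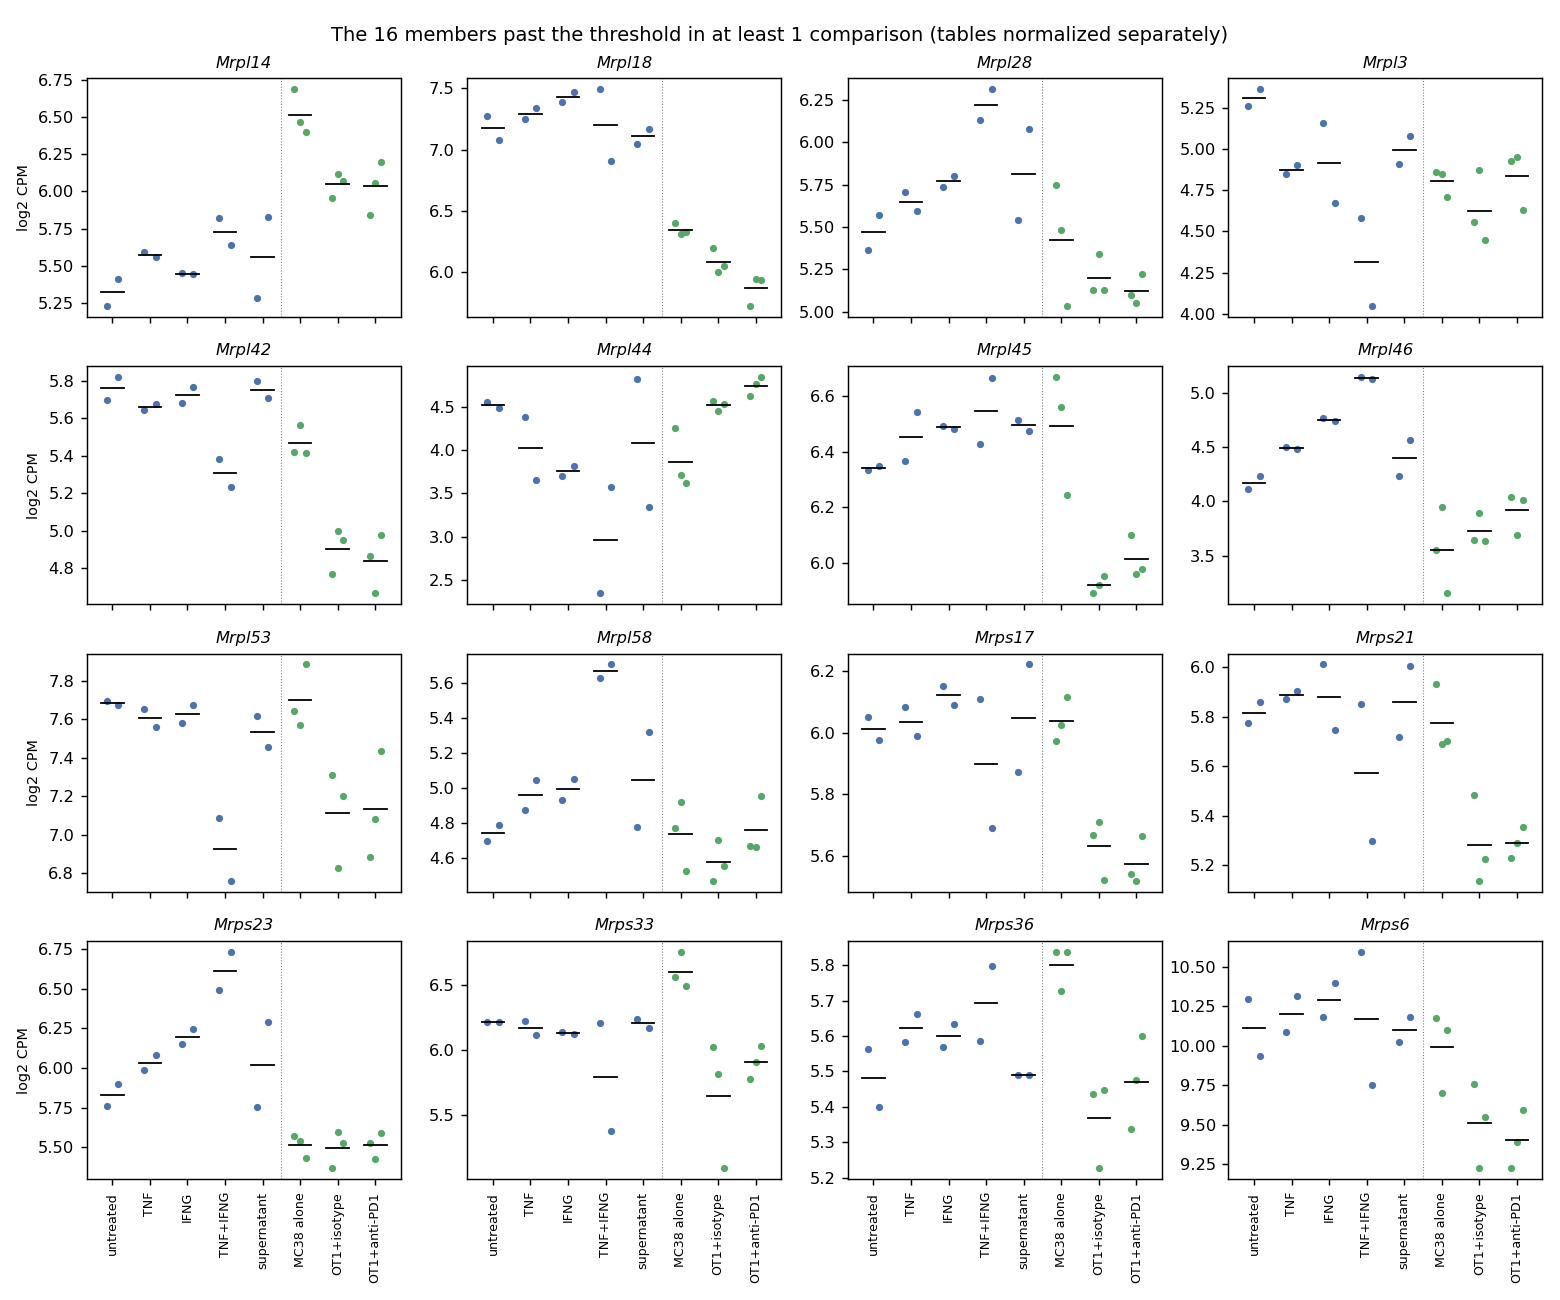
Level in log2 CPM of the 16 members that passed in at least 1 comparison, with 1 point per library and the group mean as a line; in vitro groups are blue and co-culture groups green, and each panel has its own vertical scale. Mrpl53 is low with TNF+IFNG and with OT1 T cells. Of the 16 shown, Mrpl44 is the member whose co-culture libraries all lie above MC38 alone.

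Between the antibodies no member passed, and neither did any gene in the table (0%). The 3 members with the smallest p were Mrps28 (1.07 ± 0.34), Mrpl27 (0.41 ± 0.14) and Mrps11 (0.73 ± 0.28), each with adjusted p = 1. Their unadjusted p was under 0.05, and the share of all genes at that cutoff is not given here. All 3 folds were positive, and whether members share a direction was not tested. Mrps11 was at 2.62, 3.32 and 2.99 with anti-PD1, against 2.31, 2.56 and 1.87 with isotype and 2.03, 2.53 and 2.04 alone. The median 95% interval of a member's fold in this table reached 0.36 log2 units to either side, before adjustment for the number of genes. The 1.07 of Mrps28 has an SE of 0.34 and rests on 16 to 66 implied reads in the antibody groups. That it did not pass therefore does not stand for the other members.

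Some members are given for their role, whether or not they passed. Mrpl12 ranged in log2 fold from −0.01 to 0.21 over the 8 comparisons (lowest adjusted p = 0.279), and Mrps12, the counterpart of bacterial S12 at the decoding centre, from −0.07 to 0.68 (0.0752), the latter with TNF+IFNG. Of the 3 paralogs of bacterial S18, Mrps18a ranged from −0.07 to 0.56 (0.128), Mrps18b from −0.13 to 0.25 (0.288) and Mrps18c from −0.56 to 0.42 (0.109). Mrps30 stayed within −0.14 and 0.10 (0.666). Of the members at the ends of the level order, Mrps6 ranged from −0.59 to 0.18, Mrps27 from −0.28 to 1.07 and Mrps28 from −3.23 to 1.09. Mrps18c turned on 1 library: it stood at 4.31, 4.26 and 2.42 in MC38 alone, and its folds of 0.31 with isotype and 0.42 with anti-PD1 became −0.32 and −0.20 without the third library of MC38 alone, and −0.20 and −0.07 with library weights.

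Neighbours that share a start region with a member were tested in the same fits. Of 31 partners that are not members, 28 were tested in both tables. Of the members in these pairs, 2 passed with isotype, 3 with anti-PD1 and 0 elsewhere. A member and its partner could thus both pass only in those co-culture comparisons, and none did. With so few members past the threshold, this does not show whether the neighbours change together. Mitd1, the partner of Mrpl30, rose by 1.07 ± 0.10 and 1.08 ± 0.10 in the isotype and anti-PD1 comparisons (adjusted p = 5.14e-05 and 5.18e-05), while Mrpl30 stood at −0.26 ± 0.13 and −0.27 ± 0.13 (adjusted p = 0.215 and 0.177). Ncapd2, a condensin subunit and the partner of Mrpl51, fell by 0.87 ± 0.16 and 1.11 ± 0.16 (adjusted p = 0.0055 and 0.00126), while Mrpl51 stood at 0.05 ± 0.19 and −0.25 ± 0.19 (adjusted p = 0.897 and 0.401). In all, 1 partner rose and 2 fell with isotype, 1 rose and 5 fell with anti-PD1, 1 fell with TNF+IFNG and none passed in the other comparisons. The 2 named have the smallest adjusted p, and were chosen after their values were seen.

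Other genes of mitochondrial translation were counted in the same fits. With TNF+IFNG, of 17 tested translation factors 0 rose and 1 fell, of 32 assembly factors 2 rose and 1 fell, of 22 aminoacyl-tRNA synthetases none passed, of 15 genes of mitochondrial transcription and DNA maintenance none, and of 13 nuclear regulators 1 fell. Tsfm, the mitochondrial elongation factor Ts, fell from 4.87 and 5.18 to 3.83 and 3.33 (−1.45 ± 0.28, adjusted p = 0.0257). Afg3l2, a protease of the inner membrane that matures the large subunit protein Mrpl32, fell from 5.34 and 5.35 to 4.34 and 4.32 (−1.01 ± 0.15, adjusted p = 0.0121). Esrra, a nuclear receptor of mitochondrial biogenesis, fell from 3.68 and 4.03 to 1.90 and 2.34 (−1.74 ± 0.31, adjusted p = 0.0203). The rRNA methyltransferase Nsun4 (0.91 ± 0.21) and Gtpbp6 (0.95 ± 0.25), a GTPase of ribosome recycling and assembly, rose. Without the second TNF+IFNG library, Afg3l2 and Esrra passed and the other 3 did not.

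In co-culture with isotype, of 17 translation factors 1 fell, of 33 assembly factors 1 rose, of 22 synthetases 1 rose, of 15 genes of transcription and DNA maintenance 1 fell, and of 13 regulators 2 rose and 2 fell. With anti-PD1, 1 translation factor rose and 1 fell, 1 assembly factor and 1 synthetase rose, no gene of transcription and DNA maintenance passed, and 3 regulators rose and 2 fell. Myc, a transcription factor that drives ribosome production, rose from 2.58, 2.44 and 1.95 to 3.63, 3.65 and 3.47 with isotype (2.40-fold, adjusted p = 0.00291) and to 3.86, 3.93 and 4.28 with anti-PD1 (3.26-fold, adjusted p = 0.00045; SE 0.21 on the log2 scale in both). Ppargc1b, a coactivator of mitochondrial biogenesis, fell from 2.51, 2.44 and 2.49 to 1.65, 0.90 and 0.78 with isotype (−1.37 ± 0.33). With anti-PD1 it stood at 1.43, 0.97 and 0.67 (−1.45 ± 0.33), and did not pass without the third anti-PD1 library (adjusted p = 0.059).

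Ppargc1a, its better known relative, was at 1.64, 1.71 and 1.21 alone, −0.34, −2.30 and −2.66 with isotype and −2.66, −2.36 and −1.03 with anti-PD1, a handful of reads in most co-culture libraries, and fell in both (−3.29 ± 0.77 and −3.53 ± 0.77). Kars, which charges lysine tRNA in the cytosol and mitochondria, rose in both (0.72 ± 0.13 and 0.62 ± 0.13), as did the rRNA methyltransferase Mrm3 (0.65 ± 0.17 and 0.73 ± 0.17). Pdf, the mitochondrial deformylase, fell in both (−1.06 ± 0.26 and −0.97 ± 0.26). Pprc1 rose with isotype (0.69 ± 0.15) and Ssbp1, the mitochondrial single-strand DNA binding protein, fell (−0.48 ± 0.14). Ssbp1 did not pass without the third library of MC38 alone or without the third anti-PD1 library. With anti-PD1, Gabpb1 (1.09 ± 0.29), Nfe2l2 (0.78 ± 0.22) and Tsfm (0.62 ± 0.14) rose. Gabpb1, Nfe2l2, Tsfm and Mrm3 did not pass against MC38 alone without the third anti-PD1 library.

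For comparison, of 91 genes named as cytosolic ribosomal proteins 14 fell with isotype and 16 with anti-PD1. Of 74 named as nuclear subunits of the respiratory chain and ATP synthase 18 and 19 fell, with none rising in either list. Of all genes, 6.22% fell and 7.64% rose with isotype, and 7.71% and 8.42% with anti-PD1. Of the 77 members, 8 fell and 1 rose with either antibody. The median folds were −0.15 and −0.14 for the cytosolic names, and −0.23 and −0.24 for the respiratory chain names. They were −0.09 and −0.06 for the mitochondrial ribosomal proteins and −0.06 and −0.06 for all genes. Without the third library of MC38 alone, 2 cytosolic ribosomal protein genes and 1 respiratory chain gene rose with anti-PD1, and 19 and 18 fell. Without the third anti-PD1 library, 10 and 15 fell with anti-PD1. Whether the lists differ from each other was not tested.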

How the data were processed

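Values were deposited by the authors as log2 CPM of 3′ tag libraries (QuantSeq, per the labels' protocols). Tools listed in the submitters' processing notes are HISAT2, featureCounts and Subread, with FastQC, cutadapt 1.7 and limma, on GRCm38 (mm10). That the unit is log2 CPM follows from sums: raised from the log2 scale, the deposited values add up to 993229 to 998505 per library. Sorted values agree between libraries of a table, so a shift common to most messages cannot be seen. Raw counts were not used here, and 9 T cell libraries were not analysed here.

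Each table was fitted as a whole in limma 3.58.1 (R 4.3.3), with an intensity trend. Genes needed a log2 value of 0 or more in at least the number of libraries of the smallest group, which removed 0 of 12721 and 239 of 12948. Rows with 1 value in every library (Gm42418 in both tables and Rps14 in co-culture) were also left out, so that 12720 and 12707 genes were tested. P-values are 2-sided with Benjamini-Hochberg adjustment over all genes tested, threshold 0.05. The script was tested on simulated data. The authors' CPM values were summed for marker lists. Named were members past the threshold, the 3 with the smallest p where fewer than 3 passed, the members of highest and lowest level, Mrpl12, Mrps12, Mrpl58, Mrps36, Mrps18a, Mrps18b, Mrps18c and Mrps30, and of each context list up to 5 genes past the threshold. The rule for members uses names alone, but the group and the lists were taken up with earlier results of these data known. The NRF1 half-site replaced a longer motif after the matches of the longer one were seen. Alternatives were no trend, library weights, a replicate block, other filters on low values, centring, fitting only the compared groups, and leaving out each library.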

Additional observations from a re-analysis of the deposited data

How the results depend on the processing

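The member counts and medians moved as follows. The counts are given without the share of all genes in the same refits, so they do not measure a response of the members. With IFNG, 2 members passed with library weights (Mrpl46 and Mrps11) and 2 when only the compared groups were fitted (Mrps11 and Mrpl44). With TNF+IFNG the count of 6 became 1 without the intensity trend and 0 with only the compared groups. With isotype the count of 9 became 3 without the trend and 3 with only the compared groups, and with anti-PD1 the count of 9 became 4 and 4. Leaving out 1 library at a time gave 0 to 15 members with TNF+IFNG, 0 to 1 with supernatant, 2 to 8 with isotype and 2 to 10 with anti-PD1, and 0 in the other comparisons. In the same refits the member median ranged from 0.0083 to 0.0697 with TNF, 0.0574 to 0.111 with IFNG, 0.0208 to 0.125 with TNF+IFNG, −0.00845 to 0.0897 with supernatant, −0.0534 to 0.0124 for the interaction, −0.108 to −0.0582 with isotype, −0.0901 to −0.0351 with anti-PD1, and −0.0248 to 0.0703 between the antibodies. Where a group of 2 lost a library, the remaining one was assumed to vary like the other groups. The causes of these moves were not tested, apart from the fewer libraries in each refit.

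With the replicate block the isotype count became 5, the TNF+IFNG count 4 and the anti-PD1 count 8, also without the share of all genes. The replicate numbers are shared across groups only as numbers: deviations of same-numbered libraries correlated from −0.29 to 0.11, so the block is not read as a pairing.

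Folds of members named for the highest or lowest level that changed sign did not pass in those comparisons. Over the refits that leave out 1 library, Mrps6 ranged from −0.0937 to 0.263 with TNF, −0.00267 to 0.354 with IFNG, −0.367 to 0.478 with TNF+IFNG, −0.191 to 0.165 with supernatant, −0.627 to 0.218 in the interaction and −0.251 to 0.0147 between the antibodies. Of the refits in which its sign changed, Mrps6 stood at −0.0279 with TNF without the second TNF library, −0.123 with TNF+IFNG without the second untreated library and 0.0681 with supernatant without the first supernatant library. Mrps28 ranged from −4.26 to 0.0813 with supernatant and −0.701 to 2.88 in the interaction, and Mrps27 from −0.088 to 0.418 between the antibodies.

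The stricter filter on low values, no filter and centring of each library on its median moved no member count by more than 1.5 times. Mrps33 with isotype, and Mrpl42 and Mrpl44 with anti-PD1, passed under all 16 alternatives run for them. Of 1031 folds recomputed for the members named for their role, 45 changed sign, the largest of 0.42 (Mrps18c with anti-PD1, without the third library of MC38 alone or with library weights). Depth limits the lowest members most: values of Mrps28 rest on 1.6 to 78 implied reads.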
